A study of Homo sapiens with 6 samples.

Results

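The enzymes that build and desaturate fatty acids were followed in cells labelled HepG2, a human liver cancer cell line, after exposure to cationic liposomes (CLs). The group held 10 genes of 40205 in the count table, picked by gene symbol: ACLY, ACSS2, ACACA, ACACB, FASN, ELOVL5, ELOVL6, SCD, FADS1 and FADS2. Each of the 10 was found in the table, and each had enough reads to be tested. RNA-seq was run on 3 control libraries and 3 libraries of CLs-treated cells, each numbered by its label, and values are given below in the order of these numbers. By the sample labels the dose was 120 μM for 24 h, while the study's Discussion gives the same figure in μg/ml. In the study's viability assay the cells were incubated for 24 h before exposure. The CLs were made of the cationic lipid DOTAP, which carries oleoyl chains, with cholesterol and a PEG-coupled phospholipid. All samples grew in DMEM with fetal bovine serum. What the control wells received in place of CLs is not given in the sources used here.

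The libraries held 11418527 to 13998946 reads assigned to genes, and CLs-1 had the most. The hepatocyte markers that define HepG2 cells were at or near 0. Summed over ALB, AFP, TTR, APOA2, APOB, SERPINA1, TF, FGB and AHSG, between 0 and 16 counts were found in 5 of the samples and 69 in CLs-1. The albumin gene ALB was counted 8 times in CLs-1 and in no other library, and TTR had 0 in all 6. Markers of fibroblasts and stroma were mixed. COL3A1, a fibrillar collagen of connective tissue, had between 7456 and 11358 counts in every sample. COL1A1 had between 764 and 2472 counts, and PDGFRB between 167 and 275. COL1A2, LUM, THY1 and DCN had at most 5 counts outside CLs-1. In CLs-1 they had 1044, 7, 58 and 19 counts. The label HepG2 is therefore used here only as the name the samples carry. Of the adipocyte markers ADIPOQ, LEP, FABP4, PLIN1 and CIDEC, the first 3 were at 0 in all samples, and the 5 summed to between 5 and 9 counts. CLs-1 stood apart from the other libraries. The 3 erythroid markers (HBB, HBA1 and HBA2) summed to 476 counts in CLs-1 and to at most 4 elsewhere. The 7 adrenal markers summed to 482 counts against 11 to 32. Of the 482, STAR had 290 and CYP11A1 151, while CYP17A1, CYP21A2 and MC2R had at most 1 count in any sample. CYP11A1 also gave most of the adrenal counts elsewhere, with 11 to 29. The part of these transcripts in the results was not tested, and values without CLs-1 are given for the 10 enzymes and for several of the other genes and lists. No label states that the samples came from separate cultures, so the p-values measure only the spread between these samples. In bulk RNA, fewer cells of a type and less RNA per cell cannot be told apart.

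Cells make fatty acids from acetyl-CoA. ATP citrate lyase (ACLY) cuts citrate to acetyl-CoA in the cytosol, and acetyl-CoA synthetase (ACSS2) makes it from acetate. The acetyl-CoA carboxylases (ACACA in the cytosol, ACACB at the mitochondrion) turn it into malonyl-CoA, from which fatty acid synthase (FASN) builds palmitate. ELOVL6 lengthens palmitate, ELOVL5 lengthens polyunsaturated chains, stearoyl-CoA desaturase (SCD) sets the first double bond to give oleate, and FADS1 and FADS2 add double bonds to polyunsaturated chains. In liver, many of these genes are known targets of SREBP-1c, a transcription factor encoded by SREBF1. Their expression is known to be restrained by polyunsaturated fatty acids.

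Upstream sequences are shown for 3 genes whose groups did not overlap (ACLY, ACSS2 and SCD) and for 2 whose groups did (FADS1 and ELOVL6), because SREBP acts on such promoters together with NF-Y, which binds CCAAT boxes. They come from RefSeq, build GRCh38.p14, whereas the counts were made on hg19. The table used held 15 start sites for 9 of the 10 genes, all but FASN. The search covered the 250 bases before each start on both strands. Bases that GENCODE 29 places in an exon are left out of the print, and capitals mark CCAAT or its reverse complement ATTGG. The window of ACLY is chr17:41919023-41919272 on the minus strand, and that of ACSS2 is chr20:34874739-34874988 on the plus strand, the first of 2 listed starts. The stretch of SCD is chr10:100346983-100347123 on the plus strand. Those of FADS1 and ELOVL6 are chr11:61817163-61817253 and chr4:110198677-110198865, both on the minus strand.
ACLY: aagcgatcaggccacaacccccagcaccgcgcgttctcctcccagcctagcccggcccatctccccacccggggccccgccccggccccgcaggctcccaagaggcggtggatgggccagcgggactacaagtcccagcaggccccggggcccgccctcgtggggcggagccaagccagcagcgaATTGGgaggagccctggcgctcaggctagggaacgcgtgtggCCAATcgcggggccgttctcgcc
ACSS2: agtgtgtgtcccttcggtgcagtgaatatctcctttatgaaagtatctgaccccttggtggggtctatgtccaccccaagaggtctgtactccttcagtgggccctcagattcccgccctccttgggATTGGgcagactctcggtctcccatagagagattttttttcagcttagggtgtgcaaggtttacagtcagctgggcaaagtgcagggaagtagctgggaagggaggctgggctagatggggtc
SCD: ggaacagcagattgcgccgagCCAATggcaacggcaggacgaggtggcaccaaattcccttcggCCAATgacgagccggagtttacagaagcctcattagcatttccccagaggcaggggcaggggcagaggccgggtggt
FADS1: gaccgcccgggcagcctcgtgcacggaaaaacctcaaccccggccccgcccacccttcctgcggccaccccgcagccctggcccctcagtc
ELOVL6: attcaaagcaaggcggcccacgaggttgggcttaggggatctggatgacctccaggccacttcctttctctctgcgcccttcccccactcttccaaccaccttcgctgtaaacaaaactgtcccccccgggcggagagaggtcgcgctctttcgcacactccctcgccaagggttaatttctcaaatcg
A CCAAT box stood before 8 of the 15 starts, against 32% of 35116 promoter windows of the same length. The 15 windows are not all separate. Those of the 2 ACLY starts overlap and hold the same CCAAT boxes, and those of the 2 FADS2 starts overlap as well. The 8 starts belonged to ACLY, ACSS2, SCD, ACACA, ACACB and ELOVL5, so genes with and without overlapping groups were among them. The other listed start of ACSS2, not printed here, had no CCAAT box, and neither had a start of ACACA. ACACB, whose groups overlapped, had 2 CCAAT boxes before a start that is not printed. The printed stretches therefore do not represent all 15 starts. The sterol regulatory element letters TCACNCCAC stood before none of the 15 starts and in 0.883% of all windows. The GC box GGGCGG stood before 11 of the 15, against 42.6% of all windows. These are matches of letters only, and binding was not measured.

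The comparison of the CLs-treated with the control samples asked whether the cells expressed these enzymes at another level after 24 h. The most marked differences were in the acetyl-CoA step, the synthase and the first desaturase. Mean levels of ACSS2, SCD, FASN, ACLY and ACACA were lower in the CLs-treated group, at 0.512 to 0.803 of the control level. In the elongases, FADS1, FADS2 and ACACB the 2 groups overlapped, with adjusted p of 0.998 or 0.999 from edgeR. In the quasi-likelihood test of edgeR, adjusted by Benjamini-Hochberg over 15047 genes, 0 of the 10 passed an adjusted p under 0.05 with a fold change above 1.5 or below 0.67. Over all genes the rate was 0.0864%. At an unadjusted p under 0.05, 5 of the 10 were lower, against 3.62% of all genes, and 0 were higher. In the same 5 genes, each CLs-treated sample lay below each control sample, which held for 6.18% of all genes. A negative log2 fold change was found for 9 of the 10, against 47.9% of all genes, and the median was -0.24, against 0.010 over all genes. By DESeq2's Wald test with the same criteria, 3 of the 10 passed, against 0.711% of all genes, namely ACSS2, SCD and FASN. The same 3 passed in edgeR when every gene with a read was tested, against 0.672%. In the fit blocked on replicate number 1 passed, ACSS2, against 0.452%. On counts simulated at this depth, a fold of 2 was recovered for 64% of the changed genes and a fold of 1.5 for 4.06%. The changed genes were drawn at random from all tested genes, so these are not recovery rates for the 10 enzymes. Recovery there needed only an adjusted p under 0.05 from edgeR, without the fold change criterion. An exact two-sided permutation test of 1 gene cannot go below p = 0.10 with 3 samples against 3, so it adds nothing to the overlap of the groups.

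**Figure D1:**
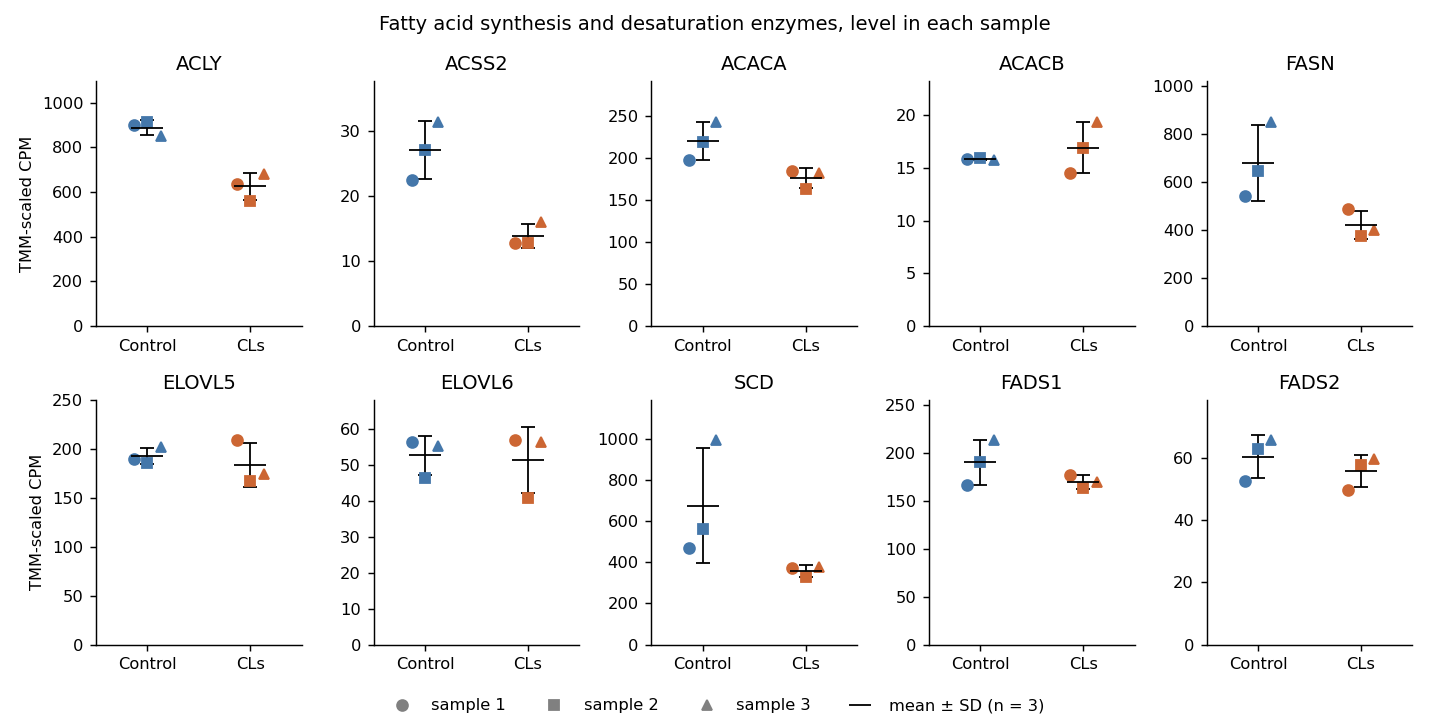
Level of the 10 enzymes in TMM-scaled CPM (vertical axes from 0) in the Control and CLs groups, with a symbol for each sample and bars for the mean ± SD of 3 samples. The CLs-treated samples of ACLY, ACSS2, ACACA, FASN and SCD lie below all their controls, and SCD and FASN are highest in Control-3.

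ACSS2 showed the lowest ratio between the groups. Its level was 22.5, 27.1 and 31.4 CPM (read counts scaled to a common library total by TMM) in the controls. It was 12.7, 12.8 and 15.9 CPM in the CLs-treated samples. All treated samples were thus well below the lowest control. The means were 27.0 ± 4.45 and 13.8 ± 1.84 CPM (SD, n = 3 in each group), and the log2 fold change was -0.97 (95% interval -1.37 to -0.57, adjusted p = 0.0974 from edgeR). The adjusted p of ACSS2 was 0.0193 in the fit blocked on replicate number and 0.0014 in DESeq2. ACSS2 is among the genes that the study listed as differentially expressed from these same libraries, so its direction is no separate evidence.

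ACLY, the main source of cytosolic acetyl-CoA, had 902.5, 914.9 and 850.9 CPM in the 3 control samples and 637.3, 559.9 and 681.0 CPM in the treated ones. The groups were far apart relative to their spread, with means of 889.4 ± 33.9 and 626.1 ± 61.3 CPM (SD, n = 3 in each group). The log2 fold change was -0.51 (95% interval -0.81 to -0.21, adjusted p = 0.32 from edgeR). DESeq2 gave ACLY an adjusted p of 0.0414, but its ratio of 0.704 misses the fold change criterion of 0.67. In GENCODE 29, 3.56% of the exon bases of ACLY are shared with a gene on the other strand, AC125257.2, and the use of strand in the counting is not stated.

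ACACA carries the carboxylase of fatty acid synthesis. It had 197.9, 219.2 and 243.5 CPM in the controls and 185.4, 163.1 and 182.0 CPM after CLs. The nearest samples of the 2 groups, Control-1 and CLs-1, were close to each other. The log2 fold change of ACACA was -0.32 (95% interval -0.61 to -0.022, adjusted p = 0.801 from edgeR). ACACB, whose malonyl-CoA restrains the uptake of fatty acids into mitochondria, had 15.8, 15.9 and 15.8 CPM in the controls and 14.5, 16.9 and 19.4 CPM after CLs. The controls of ACACB lay within the range of the treated samples, and its log2 fold change was 0.095 (95% interval -0.28 to 0.47). For every 100 reads on ACACA, there were 6.48 to 7.99 on ACACB in the controls and 7.84, 10.3 and 10.6 after CLs. This ratio does not depend on the scaling, and CLs-1 lay among the controls.

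FASN, a single large protein that carries out every step of palmitate synthesis, had 541.2, 645.5 and 851.2 CPM in the controls. It had 489.0, 376.9 and 398.4 CPM in the treated samples. The controls were spread widely, and Control-1 was only slightly above CLs-1. The means were 679.3 ± 157.7 and 421.4 ± 59.5 CPM (SD, n = 3 in each group), with a log2 fold change of -0.69 (95% interval -1.09 to -0.29, adjusted p = 0.303 from edgeR and 0.0342 from DESeq2). Without Control-3, the log2 fold change of FASN was -0.49, without Control-1 -0.83 and without Control-2 -0.72.

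SCD makes oleate and palmitoleate from saturated chains. Its level was 467.7, 561.9 and 992.8 CPM in the controls, against 371.3, 326.0 and 375.7 CPM after CLs. Control-3 was far above the other controls, whereas the treated samples lay close together. The means were 674.1 ± 280.0 and 357.7 ± 27.5 CPM (SD, n = 3 in each group). The log2 fold change of SCD was -0.91 (95% interval -1.44 to -0.39, adjusted p = 0.296 from edgeR and 0.0153 from DESeq2). Without Control-3 it was -0.52, without Control-1 -1.12 and without Control-2 -1.03, so the size of this difference depends on which controls are used. The pseudogene SCDP1 had 141, 150 and 267 counts in the controls and 117, 81 and 98 in the treated samples. That is 2.15 to 2.62 for every 100 counts on SCD in each sample, and reads of SCD and SCDP1 could have been split between them.

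The elongases showed no such separation. ELOVL5 had 190.1, 185.7 and 202.1 CPM in the controls and 208.7, 167.3 and 174.8 CPM after CLs, so the highest value of all was in a treated sample. Its log2 fold change was -0.069 (95% interval -0.36 to 0.23). ELOVL6 had 56.2, 46.4 and 55.3 CPM in the controls and 56.8, 40.8 and 56.4 CPM in the treated samples. In both groups of ELOVL6 the second sample was the lowest, and the log2 fold change was -0.035 (95% interval -0.39 to 0.32). The intervals of both elongases exclude the fold changes of 1.5 and 0.67 but not smaller shifts.

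The desaturases of polyunsaturated chains differed little as well. FADS1, which makes arachidonate, had 166.4, 190.5 and 212.8 CPM in the controls and 177.2, 162.7 and 168.9 CPM in the treated samples. Control-1 fell inside the range of the treated samples, and the log2 fold change was -0.16 (95% interval -0.46 to 0.13). FADS2, which takes the first step from linoleate, had 52.4, 62.7 and 65.5 CPM in the controls and 49.7, 57.7 and 59.7 CPM after CLs. The groups of FADS2 overlapped, and the log2 fold change was -0.11 (95% interval -0.43 to 0.20). FADS1 and FADS2 are neighbours on opposite strands and share 142 exon bases in GENCODE 29, which is 1.8% of FADS1 and 2.85% of FADS2.

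**Figure D2:**
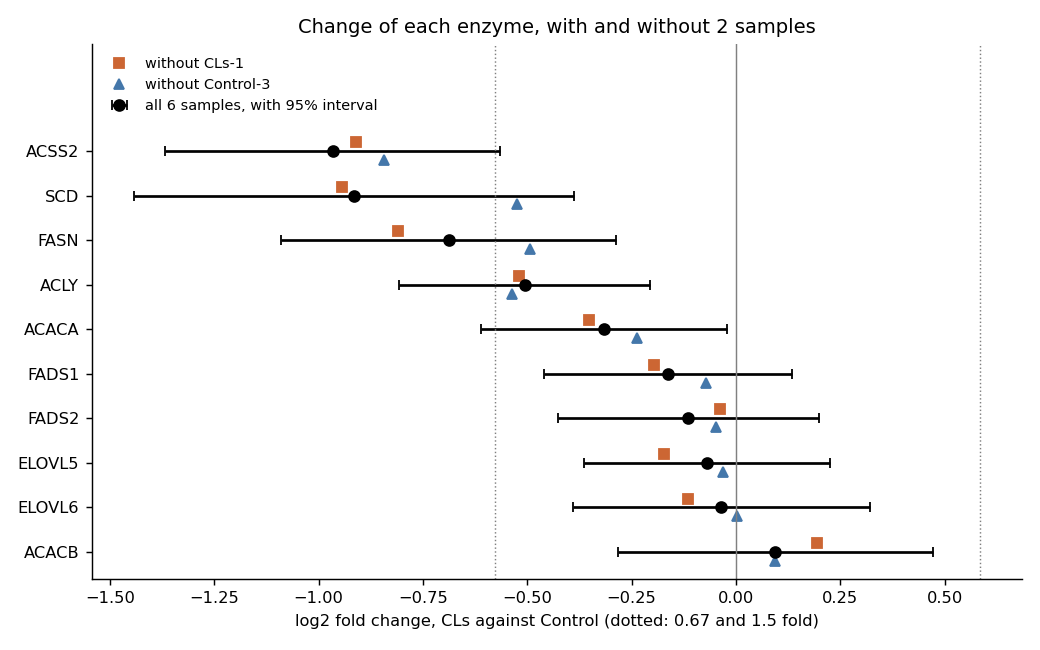
Log2 fold change of each enzyme (horizontal axis) in the edgeR fit of all 6 samples with its 95% interval, and the value without CLs-1 or without Control-3. ACSS2, SCD, FASN, ACLY and ACACA have intervals below 0, and SCD moves furthest without Control-3, from -0.91 to -0.52.

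The 5 lower genes were also lower without CLs-1. Their log2 fold changes were then -0.91 for ACSS2, -0.94 for SCD, -0.81 for FASN, -0.52 for ACLY and -0.35 for ACACA. Without Control-3 they were -0.84 for ACSS2, -0.52 for SCD, -0.49 for FASN, -0.54 for ACLY and -0.24 for ACACA. The other 5 genes lay between -0.20 and 0.19 without CLs-1, and between -0.073 and 0.093 without Control-3. None of the 10 genes passed the criteria in any of the 6 edgeR fits that left out 1 sample.

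Ratios of counts within a library, which need no scaling, differed between the enzymes of the pathway. For every 100 reads on FADS2 there were 892, 896 and 1520 on SCD in the controls and 747, 566 and 630 after CLs. For every 100 reads on ELOVL6 there were 963, 1390 and 1540 on FASN in the controls and 861, 924 and 706 after CLs. In both ratios the groups did not overlap, and these pairs, like the others here, were chosen after the values were seen and were not tested. The ratio of SCD to FASN overlapped between the groups, with 86.4 to 117 reads on SCD for every 100 on FASN in the controls and 75.9 to 94.3 in the treated samples. Against ACLY, ACSS2 stood at 2.49, 2.96 and 3.69 reads for every 100 in the controls and 2.00, 2.28 and 2.34 after CLs, again without overlap. Summed over the 10 genes, the enzymes took 0.255%, 0.284% and 0.353% of all counts in the controls and 0.227%, 0.186% and 0.213% in the treated samples. ACLY, FASN and SCD together gave most of these counts in every sample, so the sum mainly restates those genes.

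Levels of different genes were compared as CPM per kilobase of exon, with exon lengths from GENCODE 29. In the control group ACLY was highest, at 203.2 ± 7.75 CPM per kilobase (SD, n = 3). SCD followed at 125.7 ± 52.2, FASN at 79.3 ± 18.4 and ELOVL5 at 55.3 ± 2.45 CPM per kilobase. FADS1 was at 24.0 ± 2.94, ACACA at 19.98 ± 2.07 and FADS2 at 12.1 ± 1.38 CPM per kilobase. ACSS2 and ELOVL6 were at 8.70 ± 1.43 and 7.94 ± 0.82, and ACACB was lowest, at 1.68 ± 0.006 CPM per kilobase. The control samples of SCD and FASN overlapped, as did those of FADS1 and ACACA and those of ACSS2 and ELOVL6, so these neighbours are not separated. In the CLs-treated group none of these 3 pairs overlapped, with SCD at 66.7 ± 5.13 and ACSS2, at 4.45 ± 0.592, below ELOVL6, at 7.74 ± 1.38 CPM per kilobase. FASN, at 49.2 ± 6.95, then overlapped with ELOVL5, at 52.7 ± 6.33 CPM per kilobase. The overlap of neighbours was not tested as a difference between the groups. With the longest coding transcript as the length, the order of the controls was the same, but FADS1 and ACACA did not overlap in the controls and FASN and ELOVL5 did, and ACACA overlapped with FADS2 in the treated group. The exon lengths come from another build than the counts, which bears on levels between genes and not on the comparison of groups.

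The transcription factors and sensors of the pathway were read beside the enzymes. SREBF1 had 98.3, 154.9 and 264.3 CPM in the controls and 134.7, 158.2 and 165.2 CPM in the treated samples. Its controls spanned the treated samples on both sides. The log2 fold change of SREBF1 was -0.18 (95% interval -0.79 to 0.43). It was 0.27 without Control-3 and -0.46 without Control-1. SREBF2, the factor of sterol synthesis, had a log2 fold change of -0.30 (95% interval -0.66 to 0.069, adjusted p = 0.922 from edgeR). SCAP, which escorts both factors out of the endoplasmic reticulum, and INSIG2, which holds them back, had log2 fold changes of -0.022 and -0.027.

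INSIG1 retains SREBP in the endoplasmic reticulum and is itself a known SREBP target. Its level was 52.1, 54.4 and 70.6 CPM in the controls and 41.1, 31.0 and 26.4 CPM after CLs. All treated samples of INSIG1 were below the controls, and the log2 fold change was -0.84 (95% interval -1.26 to -0.43, adjusted p = 0.201 from edgeR and 0.00951 from DESeq2). The study also listed INSIG1 as differentially expressed from these same libraries. NR1H3, the gene of the sterol-activated receptor LXR-alpha, had a log2 fold change of 0.30 (95% interval -0.21 to 0.81). Without CLs-1 the log2 fold changes were -1.04 for INSIG1 and 0.51 for NR1H3. MLXIPL, whose product ChREBP responds to glucose, had only 2, 10 and 19 counts in the controls and 8, 13 and 15 after CLs. THRSP, a lipogenic protein of liver, had 0 counts in all 6 samples, which allows up to 0.214 to 0.263 CPM per library. Its relative MID1IP1, which promotes the assembly of acetyl-CoA carboxylase, had a log2 fold change of -0.18 (95% interval -0.50 to 0.13).

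**Figure D3:**
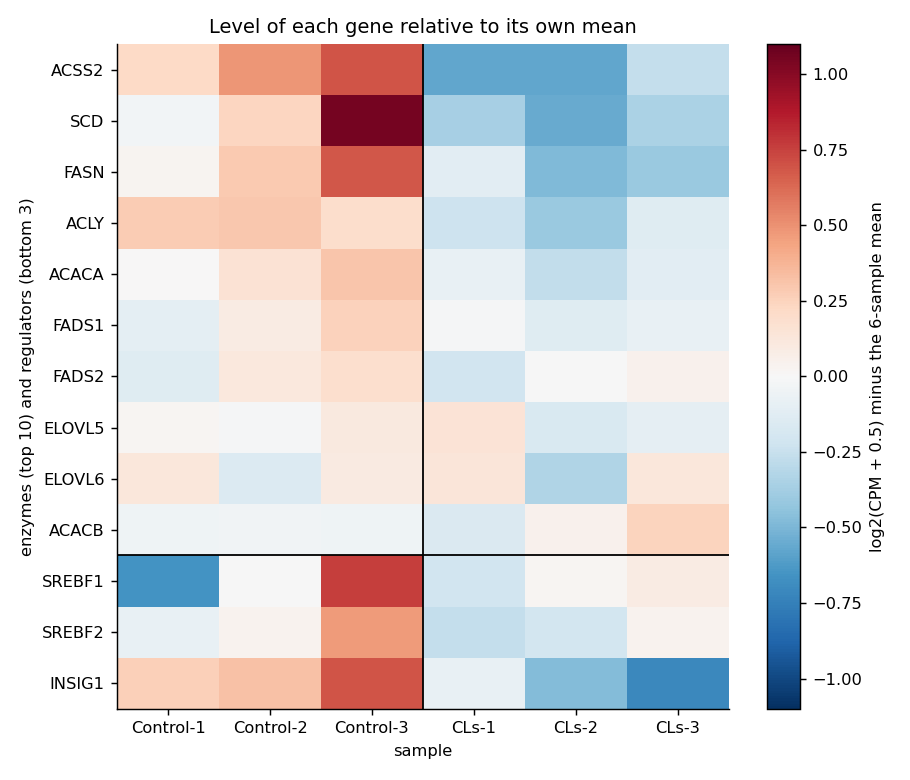
Level of the 10 enzymes and of SREBF1, SREBF2 and INSIG1 in each sample, as log2(CPM + 0.5) minus the mean of the 6 samples (colour scale). SCD, FASN, ACSS2, SREBF1, SREBF2 and INSIG1 are highest in Control-3, and the groups overlap in ELOVL5, ELOVL6, ACACB, FADS1 and FADS2.

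Control-3 gave the highest control value in 7 of the 10 enzymes, against 39.7% of all genes tested, with the exceptions of ACLY, ACACB and ELOVL6. Relative to the mean of Control-1 and Control-2, Control-3 had 1.93 times as much SCD, 1.43 times as much FASN and 1.27 times as much ACSS2, and 2.09 times as much SREBF1. In the 20 enzymes of cholesterol synthesis the order was the opposite. Control-3 was the lowest control in 18 of the 20, against 40.1% of all genes. The median ratio of Control-3 to the mean of the other controls was 1.15 over the fatty acid enzymes, 0.803 over the cholesterol enzymes and 0.998 over all genes. These differences are within the control group and were not tested.

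Of the other genes of the pathway, 0 in any list passed the criteria in the edgeR fit of 15047 genes on condition alone. In the supply of citrate and NADPH, 6 of 9 genes were higher and 3 lower, with a median log2 fold change of 0.055 and a range from -0.42 to 0.32. SLC25A1, which exports citrate from the mitochondrion to ACLY, had a log2 fold change of -0.42 (95% interval -0.80 to -0.040, adjusted p = 0.775 from edgeR). Its treated samples lay below the controls by a narrow margin, with 102.2 CPM in CLs-3 against 103.2 CPM in Control-1. The lowest value, 67.8 CPM, was in CLs-1, and without that library the log2 fold change of SLC25A1 was -0.26. The median of this list was 0.14 without CLs-1.

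The other enzymes of elongation and desaturation had a median of -0.083, with 7 of the 11 tested genes lower, of 16 listed, and 0 at an unadjusted p under 0.05. ELOVL2, ELOVL3, ELOVL4, ELOVL7 and HACD4 had too few reads to be tested, with at most 10 counts in any sample. The 9 genes of mitochondrial fatty acid synthesis had a median of -0.039, and the 10 of 13 tested genes that modify or regulate the carboxylases and FASN a median of 0.078. STK11, the kinase that activates AMPK and so restrains the carboxylases, had 1, 4 and 1 counts in the controls and 18, 5 and 6 counts after CLs, too few to be tested. It is named after its values were seen, and its highest count was in CLs-1. Without CLs-1 the medians were 0.0017 for elongation and desaturation, 0.13 for mitochondrial synthesis and 0.014 for the regulators of the carboxylases. Transcriptional control had a median of -0.018 over 16 genes, and the other acyl-CoA synthetases a median of -0.15 over the 5 of 8 that could be tested.

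The 20 enzymes of cholesterol synthesis, which share regulation by SREBP, had a median log2 fold change of -0.51 (-0.62 without CLs-1), with 19 lower, against 47.9% of all genes. At an unadjusted p under 0.05, 15 of the 20 were lower, against 3.62% of all genes and 5 of the 10 fatty acid enzymes. The 3 with the smallest p-values were DHCR7, MVD and LSS, whose log2 fold changes were -0.83, -0.87 and -0.66. Their adjusted p from edgeR was 0.0562, 0.0974 and 0.173. In the blocked fit DHCR7 and MVD passed, with adjusted p-values of 0.0157 and 0.0274. DHCR7, MVD and LSS are among the genes that the study listed as differentially expressed from these same libraries. Their direction is thus no separate evidence. The study also measured DHCR7 and LSS by qRT-PCR and reported results close to its RNA-seq. Both lists were chosen with results of these libraries known, and the difference between them was not tested.

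**Figure D4:**
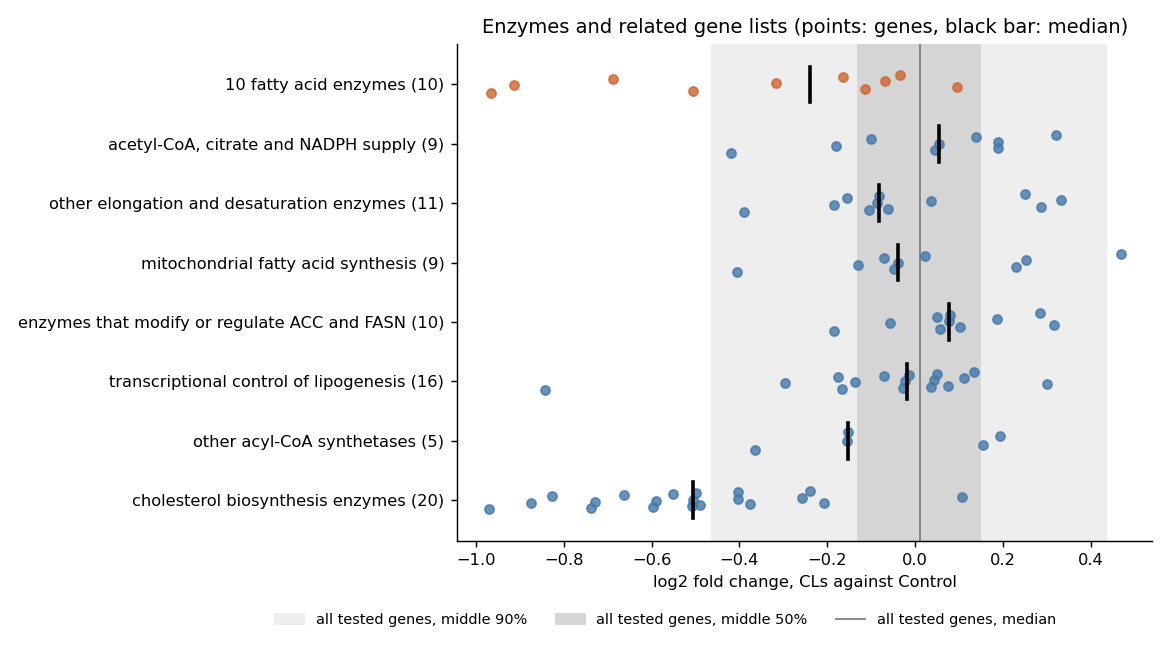
Log2 fold change (horizontal axis) of the tested genes of each list, with the number tested in parentheses, a black bar for the list median and grey bands for the spread of all 15047 tested genes. The fatty acid enzymes spread from -0.97 to 0.095, and the median of the cholesterol enzymes is -0.51.

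The genes whose profile over the 6 samples was closest to the mean profile of the 10 enzymes were PIK3CD, KIAA0226, C20orf112, GPR157 and SRGAP2. Their root-mean-square difference from it lay between 0.037 and 0.0489 on the log2 scale. The mean profile itself was 0.037, 0.15 and 0.35 in the controls and -0.15, -0.29 and -0.10 after CLs, each relative to the mean of the 6 samples. The choice by profile fixes the group difference of these 5 genes, whose log2 fold changes were between -0.40 and -0.29.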

How the data were processed

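Single-end Ion Proton reads of total RNA were mapped by the authors with MapSplice. The submitters' processing notes name HTSeq 0.6.1 and the hg19 (GRCh37) build. The values the authors deposited are raw counts for 40205 gene symbols. The treatment of strand and of reads that match several places is not given in the sources used here, and the authors' own RPKM and EBSeq steps are not part of the counts.

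Counts of 3 Control and 3 CLs samples were compared with edgeR 4.0.16 in R 4.3.3 (filterByExpr, which left 15047 genes, TMM scaling, quasi-likelihood F test on condition alone). A call needed an adjusted p (Benjamini-Hochberg) under 0.05 together with a fold change above 1.5 or below 0.67. Standard errors and 95% intervals were derived from the F statistic. EBSeq was not installed. The alternatives were DESeq2 1.42.0, a fit blocked on replicate number, other scaling factors and filters, calls without the fold change, and fits lacking 1 sample each.

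The genes named are the 10 enzymes, 9 regulators, the called genes and up to 3 genes of each pathway list with the smallest unadjusted p under 0.05, and the 5 genes closest in profile. Outside this rule, STK11, the marker genes, SCDP1, AC125257.2 and the untested genes of the elongation list are named. The members and lists were chosen with earlier results of these data known. The HACD genes were matched by their older symbols. Profiles used log2(CPM + 0.5).

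The labels give both groups the replicate numbers 1 to 3. Deviations from the group means correlated at 0.106, 0.112 and 0.32 between samples of the same number, and at most 0.0812 between samples of different numbers. All 3 same-number pairs were over 0.1, the limit for reading the numbers as pairs, and 2 were close to it. The values printed come from the fit on condition alone, which ignores the pairs, unless the blocked fit is named. In the blocked fit the log2 fold changes were -0.96 for ACSS2, -0.84 for SCD, -0.67 for FASN, -0.51 for ACLY and -0.31 for ACACA. Their adjusted p-values from edgeR were then 0.0193, 0.0909, 0.176, 0.234 and 0.592. SREBF1 had a blocked log2 fold change of -0.066, and INSIG1 one of -0.85, with an adjusted p of 0.081 from edgeR for INSIG1.

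Totals of 11418527 to 13998946 counts per sample put 3 counts, the floor used for genes at 0, at 0.214 to 0.263 CPM, which covers counting error only. No 2 samples agreed within sampling noise. On data simulated with 200 changed genes, the edgeR test recovered 4.06% at a fold of 1.5 (14859 genes) and 64% at a fold of 2 (14860 genes). At a fold of 4 it recovered 96.9% (14864 genes). The changed genes were drawn at random from those tested. Recovery meant an adjusted p under 0.05 alone, without the fold change criterion of a call.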

Additional observations from a re-analysis of the deposited data

How the results depend on the processing

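The 10 fatty acid enzymes kept a median log2 fold change between -0.24 and -0.22 under the alternatives that used all 6 samples, and between -0.32 and -0.16 when 1 sample was left out. ACSS2, SCD, FASN, ACLY and ACACA were lower in every one of these fits. With 1 sample left out, log2 fold changes ran from -1.08 to -0.84 for ACSS2 and from -1.12 to -0.52 for SCD. They ran from -0.83 to -0.49 for FASN, from -0.57 to -0.43 for ACLY and from -0.39 to -0.24 for ACACA. The number of calls depended on the setting. DESeq2 called 16 genes up-regulated and 91 down-regulated, among them 3 of the fatty acid enzymes, 1 gene of transcriptional control (INSIG1) and 6 of cholesterol synthesis. Testing every gene with a read called 58 up-regulated and 113 down-regulated, with 3, 1 and 5 in the same lists, and gave the other acyl-CoA synthetases a median of 0.10 because genes with few reads entered. Blocking on the replicate number called 12 genes up-regulated and 56 down-regulated, with 1 fatty acid enzyme and 2 cholesterol enzymes, and no other call in these lists changed. With library totals only, 11 down-regulated genes became 6 and SCAP became 0.0020.

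Leaving out 1 sample at a time, 1 to 3 genes were up-regulated and 2 to 6 down-regulated, against 2 and 11 with all samples. Log2 fold changes then ran from -0.12 to 0.11 for ELOVL6, -0.013 to 0.19 for ACACB, -0.46 to 0.27 for SREBF1, -0.11 to 0.050 for SCAP, -0.23 to 0.15 for INSIG2, -0.34 to 0.90 for MLXIPL, 0.16 to 0.51 for NR1H3, -0.40 to -0.11 for SREBF2, -0.28 to -0.059 for MID1IP1, -0.20 to -0.038 for FADS2, -0.25 to -0.073 for FADS1, -0.17 to -0.0057 for ELOVL5 and -0.54 to -0.26 for SLC25A1. List medians ran from -0.12 to 0.022 for elongation and desaturation, -0.15 to -0.017 for the acyl-CoA synthetases, -0.11 to 0.13 for mitochondrial synthesis, 0.014 to 0.17 for the regulators of the carboxylases, -0.010 to 0.14 for citrate and NADPH supply and -0.069 to 0.062 for transcriptional control. The cause of these changes was not tested. Depth limits MLXIPL, with 2 to 19 counts a sample, more than the 10 enzymes, each with at least 148.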
